A study of Mus musculus with 17 samples.

Results

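Gfi1 and 9 further genes that set secretory and absorptive fates in the colonic epithelium were examined in colonic mucosa of mice given dextran sodium sulfate (DSS), a polymer that injures the epithelium and causes colitis. The genes were the transcription factors Gfi1, Atoh1, Spdef and Klf4, the Notch ligands Dll1, Dll4 and Jag1, the receptors Notch1 and Notch2, and the Notch target Hes1. These 10 genes, of 18193 with a probe set of a single symbol, were matched by exact symbol and had 16 probe sets in all. The probe set with the highest mean stood for each gene. The set was chosen by the Gfi1 values themselves, which differed between the genotypes, so all Gfi1 values below are a description without a test.

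Total RNA of 17 colonic mucosa samples was profiled on Affymetrix mouse arrays and values are log2 gcRMA expression, so that 1 unit is a doubling. CD4cre mice carried PPARγ flfl alleles and a Cre driven by CD4, which removes the nuclear receptor PPARγ from both CD4+ and CD8+ T cells, since all T cells pass through a CD4-expressing stage. WT mice were wild-type, Cre-negative in the study's description, and both genotypes were on the C57BL/6J background. Mice drank 2.5% DSS and were sampled on day 2 or day 7, or received no DSS (day 0). There were 3 samples in each of CD4cre days 0, 2 and 7 and WT days 0 and 2, and 2 samples in WT day 7. Nothing in the sources used here says whether an array held RNA of 1 mouse, so p-values measure the spread between these samples, which may be technical.

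The colonic epithelium is renewed from crypts, where a dividing progenitor becomes either an absorptive or a secretory cell. A cell that receives a Delta or Jagged ligand through a Notch receptor switches on Hes1, a repressor that keeps Atoh1 off and leaves the cell absorptive. A cell that escapes the signal makes Atoh1, the basic helix-loop-helix factor required for all secretory cells of the mouse intestine, and later Gfi1 and Spdef, which promote goblet cell differentiation.

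Epithelial markers were high everywhere: all 12 were above background, and their mean log2 level was 12.91 to 13.44 in CD4cre day 7 samples, against 13.12 to 13.16 in CD4cre day 0 samples. T cell markers, the cells that lost PPARγ, were barely measurable, with 4 of 10 above background in any group. Other transcripts also moved with the groups. The 12 macrophage markers averaged 9.34 to 10.45 in CD4cre day 7 samples, 8.35 to 8.38 in WT day 7 samples and 7.41 to 7.69 in CD4cre day 0 samples. Endothelial markers averaged 7.16 in CD4cre day 7 replicate 2 and at most 5.76 in each sample of the other groups. Pancreatic transcripts were high in 3 samples: replicate 2 of CD4cre day 0, replicate 1 of CD4cre day 2 and replicate 2 of WT day 2. In such bulk RNA, fewer cells of a type and less RNA per cell cannot be told apart.

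Gfi1 is a zinc finger repressor that acts downstream of Atoh1 in the mouse small intestine and is also made by blood cells. Relative to day 0, it was lower on day 7 in CD4cre samples and higher on day 7 in WT samples. From day 2 to day 7 it fell in both genotypes. In CD4cre samples its log2 value was 8.26, 7.32 and 7.66 on day 0, 7.40, 7.32 and 7.21 on day 2, and 5.23, 4.91 and 5.59 on day 7. In WT samples it was 6.91, 6.53 and 6.07 on day 0, 7.74, 7.57 and 7.45 on day 2, and 7.21 and 6.96 on day 7. The CD4cre day 7 samples were the lowest 3 of all 17, and no sample of another group reached them. On day 0 the order was the other way round, with every CD4cre sample above every WT sample.

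The mean of Gfi1 on day 7 in CD4cre colon was 5.24 ± 0.34 (SD, n = 3), against 7.75 ± 0.48 on day 0 (n = 3), a log2 difference of -2.50 or 5.67-fold. In WT colon the day 7 mean was 7.09 ± 0.18 (n = 2), against 6.50 ± 0.42 on day 0 (n = 3), a log2 difference of 0.59. CD4cre minus WT was 1.25 on day 0, -0.27 on day 2 and -1.84 on day 7. Ordered by level, the groups ran CD4cre day 0, WT day 2, CD4cre day 2, WT day 7, WT day 0 and CD4cre day 7. Samples overlapped between the first and the second and between the third and the fourth of these groups, but not between the other neighbours.

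**Figure D1:**
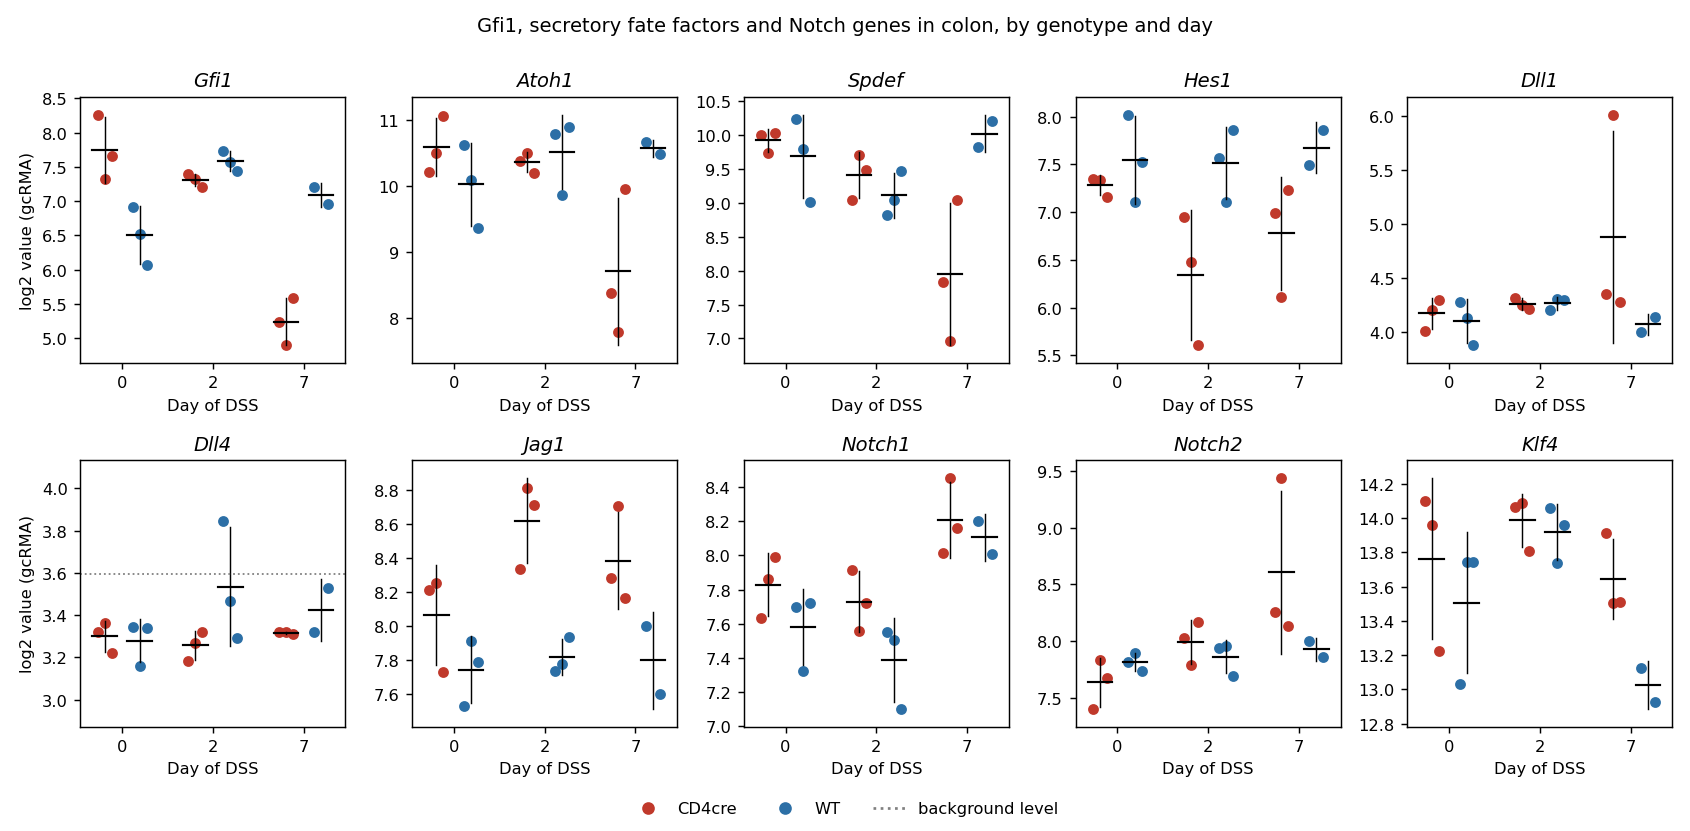
Log2 gcRMA value of each gene (vertical axis) in every sample by day of DSS (horizontal axis), CD4cre in red and WT in blue, with a bar at the group mean and a line of 1 SD each way; the dotted line is the background level of 3.59. Gfi1 in the 3 CD4cre day 7 samples lies between 4.91 and 5.59, below all other samples, and Atoh1 and Spdef are also low in 2 of those 3 samples.

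Atoh1 and Spdef fell in CD4cre colon on day 7, and the difference between the genotypes was not called for either. These were the only 2 of the 9 tested genes called in the comparison of CD4cre day 7 with day 0, and both were lower. For reading that count, 6.74% of all 45037 probe sets were called there and 3.24% were lower, while among 11651 genes with a group mean above background 13.3% were called and 6.67% were lower. A call is an adjusted p under 0.05 by limma with Benjamini-Hochberg adjustment over all 45037 probe sets.

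Atoh1 was 8.38, 7.79 and 9.95 in CD4cre day 7 samples, against 10.20, 10.49 and 11.06 in CD4cre day 0 samples. No day 7 sample reached a day 0 sample, but replicate 3 lay near them and the other 2 stood well below. The log2 fold change was -1.88 ± 0.49 (SE), 3.67-fold lower (limma adjusted p = 0.0430). In WT colon Atoh1 was 10.66 and 10.48 on day 7, against 10.62, 10.08 and 9.37 on day 0 (log2 fold change 0.55, limma adjusted p = 0.655).

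Spdef, an ETS factor that drives maturation of goblet cells, was 7.83, 6.97 and 9.05 in CD4cre day 7 samples, against 9.999, 9.73 and 10.04 in CD4cre day 0 samples. The samples again did not overlap, and replicate 3 was again the highest of day 7. The log2 fold change was -1.97 ± 0.45 (SE), 3.93-fold lower (limma adjusted p = 0.0227). In WT colon Spdef was 9.83 and 10.21 on day 7, against 10.24, 9.79 and 9.02 on day 0 (log2 fold change 0.34, limma adjusted p = 0.780).

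Both calls were close to the threshold. Each ended when any of CD4cre day 0 replicates 1, 2 or 3 or CD4cre day 7 replicates 1 or 2 was left out, with limma adjusted p of 0.0776 to 0.133 for Atoh1 and 0.0587 to 0.0751 for Spdef. The Atoh1 call ended in 13 of the 17 fits that left out 1 sample, also where that sample was in neither group. Without the 3 samples with pancreatic transcripts the log2 fold changes were -1.92 for Atoh1 (limma adjusted p = 0.145) and -2.07 for Spdef (0.102).

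On day 2 neither gene was called. Atoh1 was 10.37, 10.49 and 10.20 in CD4cre day 2 samples, and 10.79, 9.86 and 10.89 in WT day 2 samples. Spdef was 9.04, 9.71 and 9.49 in CD4cre day 2 samples, and 8.82, 9.04 and 9.46 in WT day 2 samples. The CD4cre day 2 samples overlapped day 0 for Atoh1, while for Spdef all 3 lay below every day 0 sample, the nearest pair at 9.71 and 9.73 (log2 fold change -0.51, SE 0.45, limma adjusted p = 0.754). None of the 9 tested genes was called in CD4cre day 2 against day 0, where 0.0178% of probe sets were called, nor in WT day 2 against day 0 (0.449%), and 2 and 1 of them had an unadjusted limma p under 0.05. Over all 45037 probe sets, 2981 and 4323 had such a p.

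Between the genotypes on day 7 the samples of both genes separated, but neither gene was called. Such separation, of 3 samples from 2, was not particular to them. Gfi1, Hes1, Dll1, Jag1, Notch2 and Klf4 separated too, in 1 direction or the other, and Notch1 overlapped. How often it occurs over all genes was not counted. Set against WT day 7, CD4cre day 7 samples were lower by 1.86 on the log2 scale for Atoh1 (SE 0.55, limma adjusted p = 0.124) and by 2.07 for Spdef (SE 0.50, limma adjusted p = 0.0649). None of 9 genes was called in this comparison, where 1.51% of probe sets and 3.04% of the genes above background were, and 5 had an unadjusted limma p under 0.05. Such a p was common there, in 6836 of 45037 probe sets and 3135 of 11651 genes above background. The difference between the CD4cre and the WT day 7 effect was -2.42 for Atoh1 (95% interval -4.04 to -0.81, limma adjusted p = 0.244) and -2.31 for Spdef (-3.77 to -0.85, limma adjusted p = 0.216), and 0.14% of probe sets were called in it. None of the 9 genes was called there and 2 had an unadjusted limma p under 0.05, as did 4427 of 45037 probe sets. CD4cre day 7 replicate 3 decided these results: without it the genotype comparison gave limma adjusted p of 0.00718 for Atoh1 and 0.00344 for Spdef, and the difference of the effects 0.0166 and 0.0150.

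**Figure D2:**
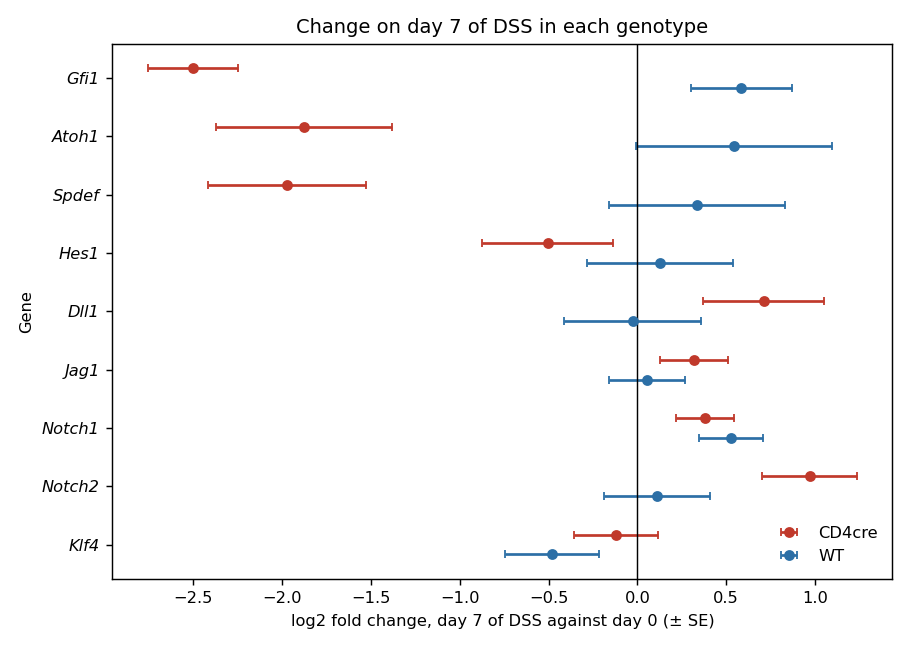
Log2 fold change of day 7 of DSS against day 0 (horizontal axis, ± SE from the limma fit) for each gene but Dll4, which was not above background, CD4cre in red above WT in blue. In CD4cre colon Gfi1, Spdef and Atoh1 lie at -2.50, -1.97 and -1.88, and their WT values are 0.59, 0.34 and 0.55.

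The sequence just before the start sites of Gfi1, Atoh1 and Spdef, the genes with the most negative day 7 fold changes in CD4cre colon, is printed here because these 3 genes were low together. Each run is the 250 bases upstream of the annotated start (the more upstream start for Gfi1, which has 2), written 5′ to 3′ on the gene's strand, from RefSeq on GRCm38.p6. Capitals mark an E-box (CANNTG, the letters bound by helix-loop-helix factors such as Atoh1) or an RBPJ core (TGGGAA, the letters bound by the DNA-binding partner of Notch). Both strands were searched, and the motif set was changed after the first matches were seen.
Gfi1 (chr5:107725806-107726055, minus strand): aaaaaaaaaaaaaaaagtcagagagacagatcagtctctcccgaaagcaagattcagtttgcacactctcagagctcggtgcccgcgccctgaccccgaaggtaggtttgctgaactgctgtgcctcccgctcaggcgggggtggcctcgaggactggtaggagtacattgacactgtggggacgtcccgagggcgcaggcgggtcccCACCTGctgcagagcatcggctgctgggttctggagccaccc
Atoh1 (chr6:64728875-64729124, plus strand): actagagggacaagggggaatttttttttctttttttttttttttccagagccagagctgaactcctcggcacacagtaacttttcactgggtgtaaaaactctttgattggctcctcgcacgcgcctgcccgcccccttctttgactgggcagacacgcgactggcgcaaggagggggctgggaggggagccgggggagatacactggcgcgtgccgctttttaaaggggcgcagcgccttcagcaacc
Spdef (chr17:27728952-27729201, minus strand): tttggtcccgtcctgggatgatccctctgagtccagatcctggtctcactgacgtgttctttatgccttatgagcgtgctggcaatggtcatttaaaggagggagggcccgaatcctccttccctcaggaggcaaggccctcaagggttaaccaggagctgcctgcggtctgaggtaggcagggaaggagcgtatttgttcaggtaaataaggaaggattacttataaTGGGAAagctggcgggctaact
Gfi1 held an E-box 42 bases before the start, Spdef an RBPJ core 22 bases before it, and Atoh1 neither. An E-box was in 66.2% and an RBPJ core in 21.6% of all 32851 promoters searched in the same way, so such matches are common. The core AAATCA, to which Gfi1 itself binds, was in none of the 3 windows and in 12.4% of all promoters. Of the 10 genes, 9 had a promoter entry.

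Over the 17 samples Atoh1 and Spdef went with Gfi1 in different ways. Pearson's r with Gfi1 was 0.82 for Atoh1, at rank 152 of 11650 genes, and 0.70 for Spdef, at rank 716. Without the 3 CD4cre day 7 samples, r was 0.51 for Atoh1 and 0.03 for Spdef (n = 14), so the relation of Spdef to Gfi1 rested on those samples. Atoh1 and Spdef had r = 0.85 with each other, and 0.37 without them. These values are descriptions, since the points share groups and arrays.

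**Figure D3:**
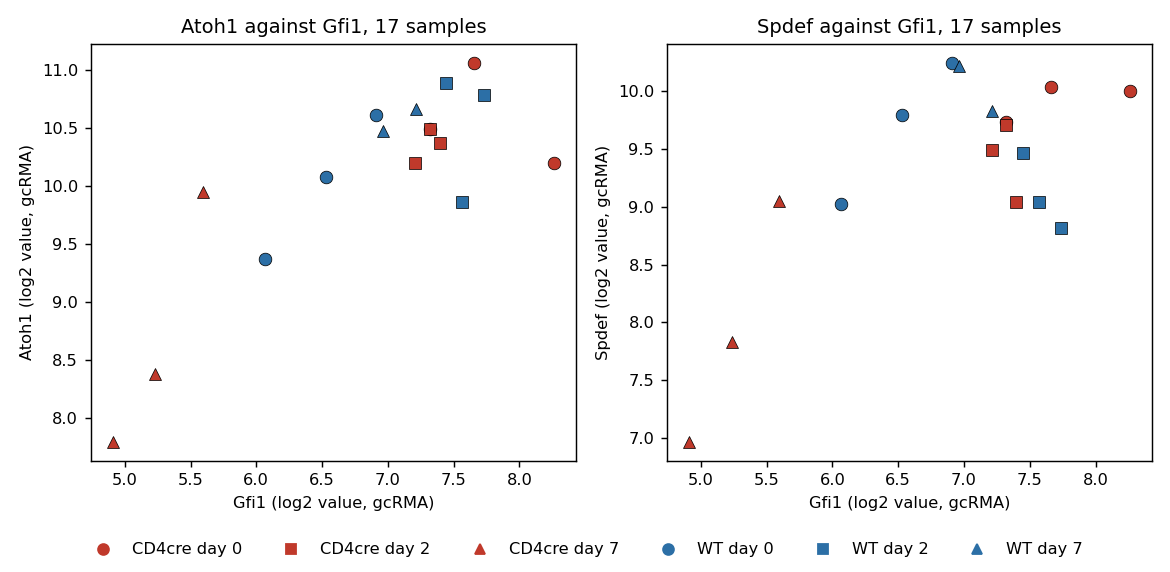
Log2 gcRMA value of Atoh1 (left) and Spdef (right) on the vertical axis against Gfi1 on the horizontal axis, 1 point a sample, coloured by genotype and shaped by day. The 3 CD4cre day 7 points (red triangles) stand apart at Gfi1 values of 4.91 to 5.59, and r over the other 14 samples is 0.51 for Atoh1 and 0.03 for Spdef.

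The 5 genes whose values were most like those of Gfi1 over the 17 samples were Tpsg1 (r = 0.94), Pxylp1 (0.93), Sgsm3 (0.93), 1110032A03Rik (0.92) and Pdia5 (0.91), of 11651 genes with a group mean above background. Without the CD4cre day 7 samples their r lay between 0.69 and 0.79. Tpsg1, a membrane-bound tryptase that is also on the list of goblet cell markers, was 6.15, 6.16 and 6.84 in CD4cre day 7 samples, against 8.36, 7.88 and 7.80 in CD4cre day 0 samples. Its log2 fold change of -1.63 is a description, since a gene picked for its likeness to Gfi1 is low where Gfi1 is low.

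Klf4, a zinc finger factor of the surface epithelium that is needed for colonic goblet cells in mice, was not called in any comparison. It was 13.91, 13.50 and 13.51 in CD4cre day 7 samples, against 14.10, 13.96 and 13.23 in CD4cre day 0 samples, which overlapped. In WT it was 13.12 and 12.93 on day 7, against 13.03, 13.74 and 13.74 on day 0. On day 7 every CD4cre sample was above both WT samples, by 0.62 on the log2 scale (SE 0.27, limma adjusted p = 0.293). A second probe set of Klf4 gave 0.34 there, also without a call. For CD4cre day 7 against day 0 the second gave -0.57 and the first -0.12. For WT day 2 against day 0 they gave 0.73 and 0.41, and for the difference of the day 7 effects -0.03 and 0.36. None of these was called.

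None of the ligands was called in any comparison. Jag1, a membrane-bound ligand also made by stromal and vascular cells, had r = -0.24 with Gfi1 over the samples. It was 8.34, 8.81 and 8.71 in CD4cre day 2 samples, against 7.74, 7.78 and 7.93 in WT day 2 samples, with every CD4cre sample higher. That difference was 0.80 ± 0.19 (SE) on the log2 scale and was not called (limma adjusted p = 0.216). A second Jag1 probe set, with means near background (3.76 in CD4cre and 3.69 in WT on day 2), gave 0.07 there. The day 2 genotypes also differed in a score of posterior against anterior Hox genes, which mark position along the colon. This Hox score was -0.83 to 0.08 in CD4cre day 2 and 0.52 to 0.96 in WT day 2 samples, so genotype and position differed together. No gene of the 9 was called between the genotypes on day 2, where 0.0422% of probe sets were and 3 of the 9 had an unadjusted limma p under 0.05. So did 3302 of 45037 probe sets. On day 7 Jag1 was 8.28, 8.71 and 8.16 in CD4cre samples, against 7.999 and 7.60 in WT samples (difference 0.59, SE 0.21, limma adjusted p = 0.202). On day 0 it was 8.21, 8.25 and 7.73 in CD4cre samples, against 7.53, 7.91 and 7.79 in WT samples, which overlapped. None of the 9 genes was called between the genotypes on day 0 either, where 0.00666% of probe sets were, and none had an unadjusted limma p under 0.05.

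Dll1, the Delta ligand that acts with Dll4 in mouse crypts, stayed near 4 except in 1 sample. It was 4.35, 6.02 and 4.27 in CD4cre day 7 samples, against 4.001 and 4.14 in WT day 7 samples and 4.01 to 4.30 in CD4cre day 0 samples. CD4cre day 7 replicate 2 held the high value, and this sample also stood apart in stromal and immune markers. Its endothelial markers averaged 7.16, its fibroblast and matrix markers 13.09, against 11.78 and 11.82 in the other CD4cre day 7 samples, its macrophage markers 10.45, against 9.34 in both, and its neutrophil markers 4.38, against 3.85 and 3.71. Of 11 fibroblast and matrix markers, 5 were higher in CD4cre day 7 than in day 0 samples, where 13.3% of all genes above background were called in either direction. The log2 difference of CD4cre day 7 from day 0 was 0.71 with it (limma adjusted p = 0.235) and 0.14 without it (0.497). The part of these other cells in the value was not tested.

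Dll4, the other Delta ligand of the crypt, was not above the background level of 3.59 in 16 of 17 samples and was 3.84 in WT day 2 replicate 1. No fold change is given for it. That level is what 95% of 82 probe sets, which stand for 58 genes specific to tissues other than colon, did not exceed.

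Notch2, a receptor of crypt cells, was at its highest in CD4cre colon on day 7. It was 8.26, 9.43 and 8.13 in CD4cre day 7 samples, against 7.41, 7.83 and 7.67 in CD4cre day 0 samples, so that all day 7 samples were higher and replicate 2 stood apart. The log2 fold change was 0.97 ± 0.27 (SE), just outside the threshold (limma adjusted p = 0.0509). Over the alternatives the limma adjusted p was 0.0141 to 0.250, and without replicate 2 the log2 fold change was 0.56 (limma adjusted p = 0.0405). Notch2 was 8.001 and 7.86 in WT day 7 samples, against 7.74 to 7.90 in WT day 0 samples (log2 fold change 0.11, limma adjusted p = 0.894). The difference between the effects was 0.86 (95% interval -0.02 to 1.73, limma adjusted p = 0.525).

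Notch1, the other main receptor of crypt cells in mice, was not called in any comparison. It was 8.02, 8.45 and 8.16 in CD4cre day 7 samples, against 7.63, 7.86 and 7.99 in CD4cre day 0 samples (log2 fold change 0.38, SE 0.16, limma adjusted p = 0.192). In WT it was 8.20 and 8.01 on day 7, against 7.70, 7.32 and 7.72 on day 0 (log2 fold change 0.53, SE 0.18, limma adjusted p = 0.488). All day 7 samples were above all day 0 samples in both genotypes, and the difference of the effects was -0.15 with a 95% interval of -0.68 to 0.38. With a second Notch1 probe set, nearer background, this separation held in CD4cre colon (log2 fold change 0.42). In WT colon the samples overlapped (0.35). None of the 9 genes was called in WT day 7 against day 0, where 0.0866% of probe sets were and 1 of the 9 had an unadjusted limma p under 0.05. So did 4309 of 45037 probe sets.

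Hes1, the repressor switched on by Notch signalling, was lowest in CD4cre colon on day 2. It was 6.95, 6.48 and 5.61 in CD4cre day 2 samples, against 7.57, 7.11 and 7.86 in WT day 2 samples, with no overlap. This difference was -1.17 ± 0.37 (SE) on the log2 scale and was not called (limma adjusted p = 0.422). As said for Jag1, the Hox score for position also differed between the genotypes on day 2. On day 7 Hes1 was 6.99, 6.11 and 7.24 in CD4cre samples, against 7.49 and 7.87 in WT samples (-0.90, SE 0.41, limma adjusted p = 0.330). On day 0 the genotypes overlapped, with 7.35, 7.34 and 7.16 in CD4cre samples, against 8.02, 7.10 and 7.52 in WT samples. The difference between the CD4cre and the WT day 2 effect was -0.90 (95% interval -2.04 to 0.23), and none of the 9 genes was called in that test, where 0.00222% of probe sets were and none of the 9 had an unadjusted limma p under 0.05.

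Of the 45 pairs among the 10 genes, Hes1 and Jag1 had the most negative r, -0.84 over 17 samples and -0.81 without the CD4cre day 7 samples, a pair singled out after its values were seen. The highest r was that of Dll1 and Notch2, 0.90, and it was 0.25 without the CD4cre day 7 samples. For Atoh1, Spdef, Hes1, Dll1, Jag1, Notch2 and Klf4, samples of neighbouring groups in the order of levels always overlapped. Notch1 had 1 break, between WT day 7 and CD4cre day 0. Dll4 is left out here, since it was near background. How often groups of 2 or 3 samples break in this way over all genes was not counted, so these breaks are a description.

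Other secretory and epithelial fate factors were lower in CD4cre colon on day 7. Of 28 measured secretory and epithelial fate factors, 6 were lower and 0 higher than on day 0 (6 of the 22 above background in a group), where 3.24% of all probe sets and 6.67% of the genes above background were lower. The median log2 fold change was -0.48, against -0.04 over all genes. They included Creb3l4 (-2.40 ± 0.39 SE, limma adjusted p = 0.00472) and Creb3l1 (-1.72, 0.0122), membrane-anchored factors of the secretory apparatus. Further members were Ehf (-1.54), an epithelial ETS factor, Cbfa2t3 (-1.25), a corepressor, Foxa3 (-1.23), a forkhead factor of goblet cells, and Gata6 (-1.12), a zinc finger factor of gut epithelium.

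Creb3l4 was 6.50, 6.78 and 7.96 in CD4cre day 7 samples, against 9.57, 9.55 and 9.31 in CD4cre day 0 samples. Foxa3 was 6.91, 7.06 and 7.78 in CD4cre day 7 samples, against 8.58, 8.33 and 8.54 in CD4cre day 0 samples. In both genes the day 7 samples lay below all day 0 samples, and replicate 3 was the nearest to them, as for Atoh1 and Spdef. Neurog3, the factor of the enteroendocrine lineage, was not above background in any group mean, with 2.03 on day 7 and 2.09 on day 0 in CD4cre colon, and was named after its values were seen.

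Against WT on day 7, 5 of these 28 factors were lower in CD4cre colon and 0 higher, where 0.806% of probe sets and 1.66% of the genes above background were lower. The median was -0.59, against -0.05 over all genes. They were Ascl2 (-2.44), a helix-loop-helix factor of crypt stem cells, Creb3l4 (-2.31), Ehf (-1.39), Foxa3 (-1.26) and Gata6 (-1.07), with limma adjusted p of 0.0281 to 0.0491. Ascl2 was above background in only 1 of the 3 CD4cre day 7 samples (3.53, 3.33 and 3.91), against 6.40 and 5.67 in WT day 7 samples, and it also belongs to the list of crypt stem cell markers. None of the 28 passed the test of the difference between the genotypes' day 7 effects, while 12 had an unadjusted limma p under 0.05 there. Over the whole array, 4427 of 45037 probe sets had such a p.

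Some crypt stem cell markers were lower in the same samples, while the mean level and the summed signal of the list went different ways. The mean log2 level of the list was 5.91 to 6.45 in CD4cre day 7 samples, against 6.86 to 7.19 in CD4cre day 0 samples and 7.17 to 7.31 in WT day 7 samples. Its summed linear signal, which weighs strongly expressed markers most, went the other way against day 0. That sum was 16404.5 to 28381.5 in CD4cre day 7 samples and 13256.1 to 15040.1 in CD4cre day 0 samples, with 19845.7 to 22803.8 in WT day 7 samples. Of 11 measured, 4 were lower in CD4cre day 7 than in day 0 samples and 0 higher, and against WT day 7 samples 2 were lower, Lgr5 and Ascl2. Among all genes above background, 6.67% were lower in the first comparison and 1.66% in the second. The 4 were Lgr5, a receptor of crypt stem cells (-3.28, limma adjusted p = 0.00766), Znrf3 (-1.30) and Axin2 (-1.004), which restrain Wnt signalling, and Ephb3 (-0.87), a receptor of the crypt base. Lgr5 was 2.74, 2.69 and 4.11 in CD4cre day 7 samples, of which 1 was above background, against 6.84 and 7.06 in WT day 7 samples. None of the 11 was called in either comparison without the 3 samples with pancreatic transcripts. Their part in the lower values of the secretory factors was not tested. A low mean of the stem cell list was not particular to CD4cre day 7. It was 6.10 to 6.35 in WT day 2 samples, against 6.64 to 7.17 in WT day 0 samples. Axin2 was called lower in that comparison (-1.66, limma adjusted p = 0.0201), where 0.449% of probe sets were called.

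**Figure D4:**
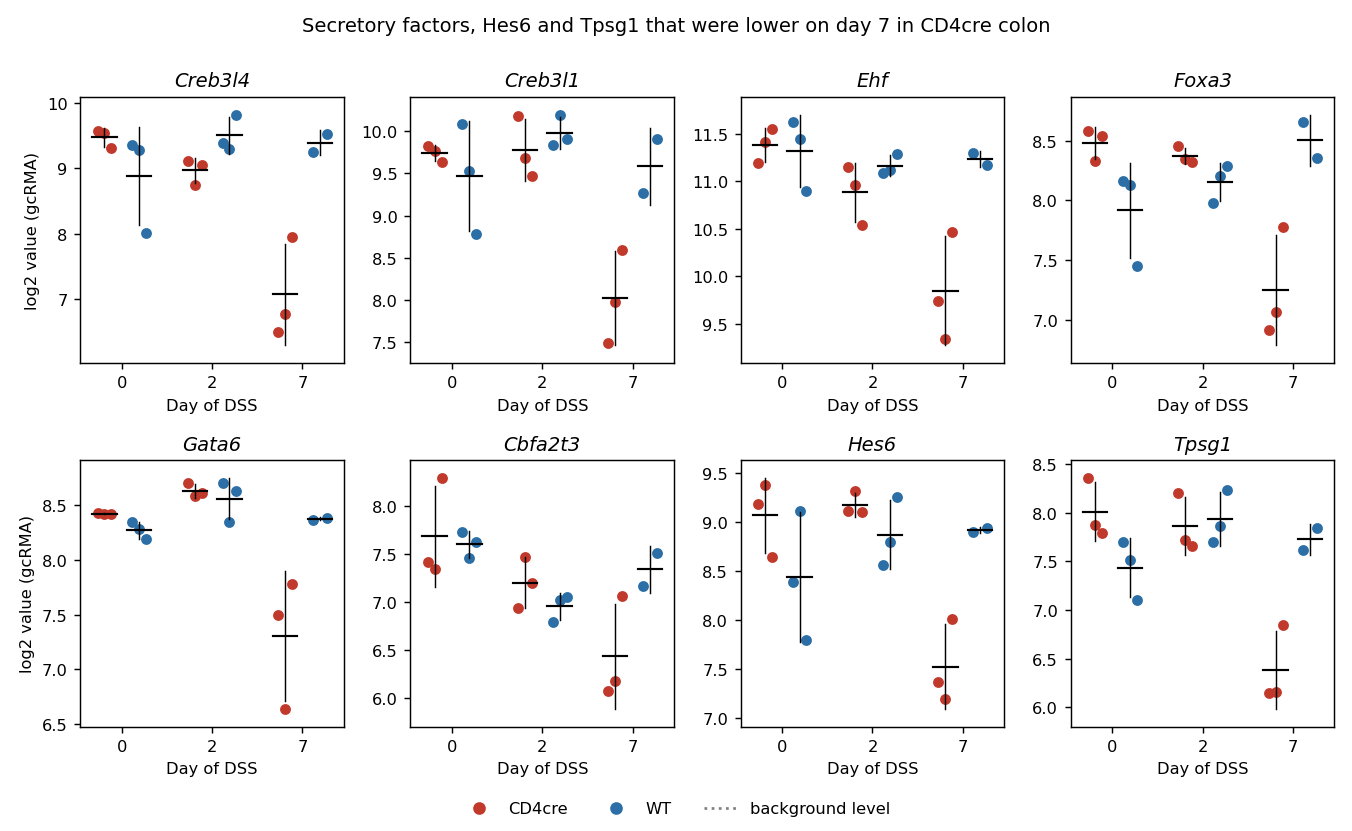
Log2 gcRMA value (vertical axis) by day of DSS (horizontal axis) of 6 secretory factors and Hes6, which were called lower on day 7 in CD4cre colon, and of Tpsg1. Tpsg1 is shown as a description, since it was the gene most like Gfi1. CD4cre is in red and WT in blue, with bars at group means and lines of 1 SD each way. The CD4cre day 7 samples are below all CD4cre day 0 samples in each panel, such as 6.50 to 7.96 against 9.31 to 9.57 for Creb3l4.

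Of 41 measured Notch pathway genes outside the 10, 2 were higher and 2 lower in CD4cre day 7 than in day 0 samples, and the median was -0.01. That is 4 of the 28 above background in a group, near the 13.3% of all genes above background that were called, and leaving out 1 sample gave 1 (without CD4cre day 0 replicate 2) to 6 (without CD4cre day 7 replicate 3). Hes6, a relative of Hes1 that opposes it in mouse neurons, fell by 1.54 on the log2 scale (limma adjusted p = 0.0154), with 7.37, 7.19 and 8.01 in CD4cre day 7 samples, against 9.18, 9.37 and 8.64 in CD4cre day 0 samples. Aph1b, a subunit of the γ-secretase that releases the Notch intracellular domain, fell by 0.62. Adam10, the protease that first cuts the bound receptor, rose by 0.59 (limma adjusted p = 0.00127), and Pofut1, which fucosylates Notch receptors, rose by 0.36. Adam10 was 12.39, 12.35 and 12.12 in CD4cre day 7 samples, against 11.91 and 11.92 in WT day 7 samples, and was the 1 Notch pathway gene called between the genotypes that day (0.37, limma adjusted p = 0.0483). This genotype call ended in 4 of the 5 fits that left out 1 of its samples, without the samples with pancreatic transcripts (limma adjusted p = 0.113) and with a score of posterior against anterior Hox genes, which mark position along the colon, as a covariate (0.115), while the Adam10 call against day 0 held in all 6 such fits.

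Among 14 genes for the partners and relatives of Gfi1, the changes were small. Kdm1a, the histone demethylase recruited by Gfi1, rose by 0.32 in CD4cre day 7 samples relative to day 0, and Rcor1, the scaffold of that demethylase complex, fell by 0.32 (limma adjusted p = 0.0252 and 0.0331). These 2 of 14, of which 12 were above background, are near the 13.3% of genes called. Leaving out 1 of the 6 samples ended the Kdm1a call in 5 fits and the Rcor1 call in 4, and both ended without the samples with pancreatic transcripts. None of the 14 was called between the genotypes on day 7. In WT colon the means moved the same way from day 0 to day 7, without a call. They went from 10.05 to 10.27 for Kdm1a and from 10.72 to 10.42 for Rcor1. Gfi1b, the closest relative of Gfi1, was not above background, with a mean of 2.84 in CD4cre day 7 samples and 2.76 in CD4cre day 0 samples, and was also named after its values were seen.

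Some goblet cell markers were lower and others were not called. Of 14, 4 were lower on day 7 in CD4cre colon: B3gnt6 (-3.85), which builds core mucin glycans, Tpsg1 (-1.63), Ern2 (-1.39), a stress sensor of the goblet cell endoplasmic reticulum, and Agr2 (-1.17), a mucin-folding isomerase. Of all genes above background 6.67% were lower. Leaving out 1 of the 6 samples gave 2 to 6 lower markers, and ended the B3gnt6 call in 5 fits and the Agr2 call in 4. Without the samples with pancreatic transcripts only Tpsg1 of these 4 stayed called. The median was -0.46, against -0.04 over all genes. Muc2, the main gel-forming mucin, had a mean of 15.51 in CD4cre day 7 samples, against 15.60 in CD4cre day 0 samples (limma adjusted p = 0.400), and Tff3, a trefoil peptide of goblet cells, 15.21 against 14.86 (limma adjusted p = 0.278), both named after their values were seen. Against WT day 7, 1 of 14 was lower (Tpsg1, -1.35), and that call ended in 4 of 5 fits that left out 1 sample. Since Tpsg1 is also the gene most like Gfi1, its place in all these counts is a description and not a separate result.

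These list counts leaned on single samples and on the pooled spread. In CD4cre day 7 against day 0 none of the 28 secretory factors was called without the 3 samples with pancreatic transcripts (median -0.54; limma adjusted p of the 6 between 0.0503 and 0.0719), nor when only those groups were fitted, but Creb3l4, Creb3l1, Ehf, Foxa3 and Gata6 stayed called when any 1 of the 6 samples compared was left out. Between the genotypes on day 7, leaving out 1 sample gave 0 (without WT replicate 1 or 2) to 9 (without CD4cre replicate 3) secretory factors, and none was called without the 3 samples with pancreatic transcripts. No epithelial marker of 12 was called in either comparison, while 12 of 12 macrophage markers were higher in CD4cre day 7 than in day 0 samples, with a median of 2.00. Of all genes above background, 13.3% were called there in either direction. The part of this macrophage shift in the lower levels was not tested.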

How the data were processed

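The deposited values are log2 expression per probe set, which the authors made from 17 mouse arrays by gcRMA (background adjustment for optical noise and non-specific binding, normalization across arrays, summarization), with R 2.9.0 and limma named in the submitters' processing notes. Arrays have no count depth, so the number of samples limits the precision. Here 64 control probe sets were dropped and the other 45037 fitted in limma 3.58.1 (R 4.3.3) with 1 mean per genotype and day over all samples (11 residual degrees of freedom), with empirical Bayes and Benjamini-Hochberg adjustment. Symbols came from GEO's platform annotation: 34945 probe sets had 1 symbol, 932 several and 9160 none. Within each genotype day 2 and day 7 were set against day 0, the genotypes were compared on each day, and the differences between the genotypes' effects were tested.

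The 10 genes and all lists were chosen with earlier results of these data known. Named genes are the 10, up to 5 called genes of each list by size of change, and the 5 most like Gfi1. Outside this rule, all 6 called secretory factors of CD4cre day 7 against day 0 were named. Neurog3, Gfi1b, Muc2 and Tff3 were named after their values were seen. Alternatives were the groups compared alone, a replicate block, median centring, trend and robust options, a filter on low values, other probe sets, a threshold of 0.1, leaving out 3 samples with pancreatic transcripts, a Hox score for position as a covariate, and leaving out each sample. Added after seeing the data were list counts under 3 of these and correlations without CD4cre day 7. The fit was tested on simulated data. Samples correlated at 0.962 to 0.997, with no duplicates. Some list genes were not analysed here.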

Additional observations from a re-analysis of the deposited data

Results flagged for a closer look

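Gfi1 was singled out because its values after DSS lay below the day 0 mean in CD4cre colon and above it in WT colon. This was not tested, since the same values chose the genes. The difference between the CD4cre and the WT effect of DSS was -1.52 on the log2 scale on day 2 and -3.09 on day 7. The day 0 difference of 1.25 between the genotypes enters both values. In CD4cre colon every day 7 sample was below every day 0 sample, while in WT colon every day 7 sample was above every day 0 sample. On day 2 the WT samples were likewise all above day 0, while the CD4cre samples overlapped day 0.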

How the results depend on the processing

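In CD4cre day 7 against day 0, the 2 genes called (Atoh1 and Spdef) became 0 with only those groups in the fit, where 28 probe sets were called in all, in place of 3036, and 0 without the 3 samples with pancreatic transcripts; leaving out 1 sample gave 0 to 3. With the replicate number as a block it was 1, since Atoh1 was no longer called (limma adjusted p = 0.0543). The block changed no other count of the 10 genes. Deviations of same-numbered samples from their group means had r from -0.50 to 0.50, over 0.1 in 14 of 40 pairs. Samples with different numbers were not compared in this way, so whether the numbers pair the samples was not settled. In CD4cre against WT on day 7, 0 became 1 (Spdef, limma adjusted p = 0.0312) with a filter on low values and 1 with a threshold of 0.1, and leaving out 1 sample gave 0 to 2. For the difference of the day 7 effects, leaving out 1 sample gave 0 to 2. Of the 28 secretory factors, 5 were lower between the genotypes on day 7, and 0 were with only the groups compared, with the block or with the Hox score. No called value changed sign. The other counts of the 10 genes stayed within 1.5 times.

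Median centring moved the share of higher calls over all probe sets to 14.2% in CD4cre day 7 against day 0, in place of 51.9%, to 34.6% between the genotypes on day 7, in place of 46.7%, and to 68% on day 2, in place of 78.9%, with shifts of the median fold change under 0.1. The directions of Atoh1, Spdef and Gfi1 did not change with it. Centring gave 12 called secretory factors in CD4cre day 7 against day 0, in place of 6, and 11 Notch pathway genes, in place of 4. These larger counts came with many more calls over the whole array, 18002 of 45037 probe sets in place of 3036. They are therefore not a stronger result for the lists. The Hox score ran from 0.52 to 0.96 in WT day 2 and from -2.91 to -0.62 in the other WT samples; with it as a covariate the WT day 2 difference of Gfi1 was 1.13, in place of 1.08. Genes near background, such as Dll4, give no measured order.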
